A study of Danio rerio with 14 samples.

Results

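Lower-listed lasting Rad21 sites without CTCF were 1404 places in the zebrafish genome where Rad21 was listed both shortly after genome activation and at the end of gastrulation, without overlap with a CTCF peak and outside the front of the later list. They were chosen by 3 deposited peak lists: a peak of the 10 hours post fertilisation (hpf) Rad21 list on chromosomes 1 to 25, placed after the first 1808 peaks of the deposited order, that overlapped by at least 1 bp a Rad21 peak of 4.5 hpf and no CTCF peak of 10 hpf. They made up 7.77% (exact binomial 95% interval 7.38 to 8.17) of the 18075 Rad21 peaks of 10 hpf, 63.7% of the 2204 lasting sites without CTCF and 19.7% of the 7144 Rad21 peaks of 4.5 hpf. Presence in the lists and place in the 10 hpf list chose these sites, so both are given as descriptions.

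The groups used here are Rad21 and CTCF immunoprecipitates of 10 hpf and Rad21 immunoprecipitates of 2.5 and 4.5 hpf, each with 2 libraries, beside an input without antibody for each stage. All came from whole embryos of the AB/PS strain, and no group was labelled with a mutation or a treatment. Per the labels' protocols each library came from a pool of embryos, 2000 at 2.5 hpf and 1000 at the later stages, so a site that is bound in few cells cannot be told apart from one that is bound weakly in many. Sequencing depth, as total tags in the file headers, was 13260105 for the 10 hpf Rad21 list, 14255160 for the 4.5 hpf one and 28291282 for the CTCF list. The approximate efficiency of the immunoprecipitation, per the same headers, was 3.38, 1.03 and 1.03 in that order. The lists thus differed in enrichment, and absence from a list does not show absence of binding. Each list stands for a stage and antibody as a whole, with no value per library. There is therefore no spread between replicates, and no difference below was tested. Intervals are exact binomial 95% intervals of shares and order-statistic 95% intervals of medians. They cover counting error only and treat neighbouring peaks as independent.

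Rad21 is the subunit that closes the ring of cohesin, the complex that holds sister chromatids together and extrudes chromatin loops. CTCF is a zinc finger protein that binds DNA and at which cohesin is known to halt. Cohesin is also known to gather at active promoters and enhancers, where its loader binds, so that Rad21 sites without CTCF are found in many vertebrate cells. In zebrafish the embryo starts broad transcription of its own genome at the midblastula stage, and the main body axes are laid down during gastrulation.

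Members passed through the criteria as follows. After the first 1808 peaks, 16267 peaks of the 10 hpf list were left, of which 1930 overlapped a 4.5 hpf peak. Of these 526 also overlapped a CTCF peak, and the other 1404 are the members. In the 10 hpf list as a whole 16.3% of peaks overlapped a 4.5 hpf peak and 18.8% a CTCF peak. Each member overlapped exactly 1 peak of 4.5 hpf, and the 1404 peaks of 4.5 hpf were all distinct. The overlap was thus one to one. Of these 4.5 hpf peaks, 1 overlapped a CTCF peak although its member did not.

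The deposited order is coarser than its places make it look. In long runs of rows the peaks stood in order of chromosome name (read as text, so that 10 follows 1) and then of start, and then the order began anew. Such runs are called steps here. Peaks within a step cannot be ranked by their places, and by which value the steps were sorted is not stated in the files. The 18075 peaks of 10 hpf fell into 152 steps, the longest of 1648 peaks, and the members occupied the last 35 of them, steps 118 to 152. The place threshold lay inside step 118, which ran over places 1732 to 1825 and held 94 peaks. Of the lasting sites without CTCF in this step 7 stood after the threshold and are members, and 22 stood before it, which chromosome name and position decided. Just inside the threshold, place 1809 was held by chromosome 5, 49961243 to 49961431, place 1812 by chromosome 5, 67943513 to 67943701, and place 1815 by chromosome 7, 12423095 to 12423283. Their 4.5 hpf peaks held places 3204, 3210 and 932. Just outside it, place 1801 was held by chromosome 3, 35652627 to 35652815, place 1805 by chromosome 4, 25477120 to 25477308, and place 1806 by chromosome 5, 37930215 to 37930403. The 4.5 hpf places there were 1368, 5208 and 4516. Sites on both sides of the threshold thus belonged to the same step. The 4.5 hpf list of 7144 peaks was ordered in the same way, with 107 steps, the longest of 787 peaks. Places, their medians and groups of places along either list carry this limit, which the intervals do not cover. All positions are on the Zv9 build, counted from 1.

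Members lay toward the front of the 4.5 hpf list, behind the top-listed lasting sites. The place of their 4.5 hpf peak had a median of 2446 of 7144 (95% interval 2321 to 2579), with quartiles of 1407 and 4062 and a range of 206 to 7143. The median was 494 (425 to 558) at the 800 top-listed lasting sites without CTCF and 2714 (2514 to 2990) at the 526 lower-listed lasting sites with CTCF. It was 4598 (4510 to 4684) at the 4198 peaks of 4.5 hpf that had no 10 hpf counterpart, called lost here. Members therefore sat between the top-listed lasting sites and the lost peaks, and close to lower-listed lasting sites with CTCF, whose interval overlapped theirs. In all 68.6% of the members (66.1 to 71.0) had their 4.5 hpf peak within the first 3572 places of that list, against 92.8% (90.7 to 94.4) of the top-listed sites.

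Along the 4.5 hpf list the share of peaks that were members had a peak of its own. In the first 715 peaks, 101 were at members, or 14.1% (11.7 to 16.9), while 483 were at top-listed lasting sites without CTCF. Among the first 100 peaks none was at a member (0 of 100, for which the upper end of the exact interval is 3.62%), and 97 were at top-listed lasting sites without CTCF. Taken in further groups of 715, the share at members was 36.1% (32.6 to 39.7) in the second group, the highest along the list, and in the third it was 34.4% (30.9 to 38.0). From there it was lower in each later group, down to 8.46% (6.52 to 10.8) of the last 709, of which 612 were lost. The longest step of this list, of 787 peaks, is wider than a group. Neighbouring groups can therefore be divided by chromosome name and position alone. The low share at the front is given by the rule, which takes the first 1808 places of the 10 hpf list away, and the low share at the back goes with the number of lost peaks.

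**Figure D1:**
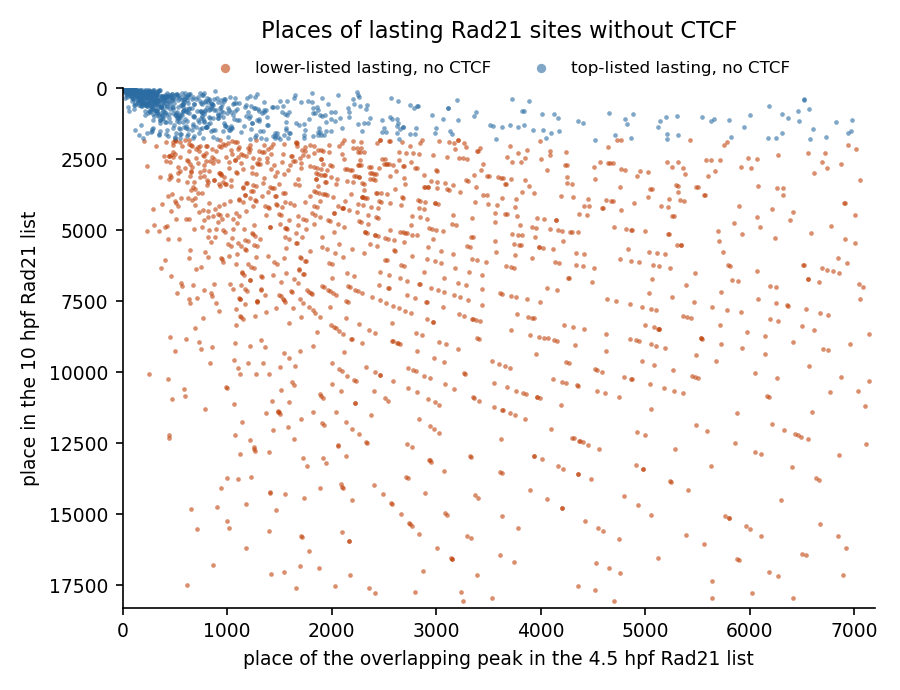
Place of each lasting Rad21 site without CTCF in the 10 hpf list (vertical, first places on top) against the place of its 4.5 hpf peak (horizontal), for 1404 lower-listed and 800 top-listed sites. The top-listed sites crowd into the front of the 4.5 hpf list, with a median place of 494, the lower-listed sites spread over places 206 to 7143, and slanting rows of points show steps, within which both lists follow chromosome name and position.

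The 5 members whose 4.5 hpf peak stood highest ended far apart in the later list. The first, at chromosome 13, 3535231 to 3535419, held place 1843 at 10 hpf and place 206 at 4.5 hpf. The next, at chromosome 20, 54001742 to 54001930, held place 2731 at 10 hpf and place 231 at 4.5 hpf, with peak centres 2 bp apart. Both thus lay ahead of most members in both lists. The third, at chromosome 19, 28619940 to 28620128, held place 5021 at 10 hpf and place 237 at 4.5 hpf. The fourth, at chromosome 1, 4825856 to 4826044, stood far down the later list, with place 10076 at 10 hpf and place 255 at 4.5 hpf. The last of them, at chromosome 1, 588160 to 588348, held place 4237 at 10 hpf and place 292 at 4.5 hpf. The lists differ in length, so a lower place at 10 hpf does not show a weaker signal there. Across the members the steps of both lists had a Spearman rho of 0.27 (1404 sites, which come from the same lists and libraries). The rule cuts the range of 10 hpf places, so this is not comparable with the 0.64 over all 2204 lasting sites without CTCF.

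In the 10 hpf list the members' places had a median of 5538, with quartiles of 3366 and 9018 and a range of 1809 to 18067. Of the members 75.1% stood in the first 9037 places of that list, against 36.5% of the 11932 lower-listed new sites, the 10 hpf peaks past the same threshold that overlapped neither a 4.5 hpf peak nor CTCF. The share of peaks without CTCF that were lasting was 30.7% (28.2 to 33.3) in the second group of 1808 places, 21.4% (19.2 to 23.7) in the third and 14.9% (13.0 to 16.9) in the fourth. It was lower in each later group, reaching 2.46% (1.77 to 3.33) in the last. In the first group, ahead of the threshold, it was 59.3% (56.7 to 62.0). Members were thus most frequent next to the threshold, where 399 of the 1404 stood, while 41 stood in the last group.

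**Figure D2:**
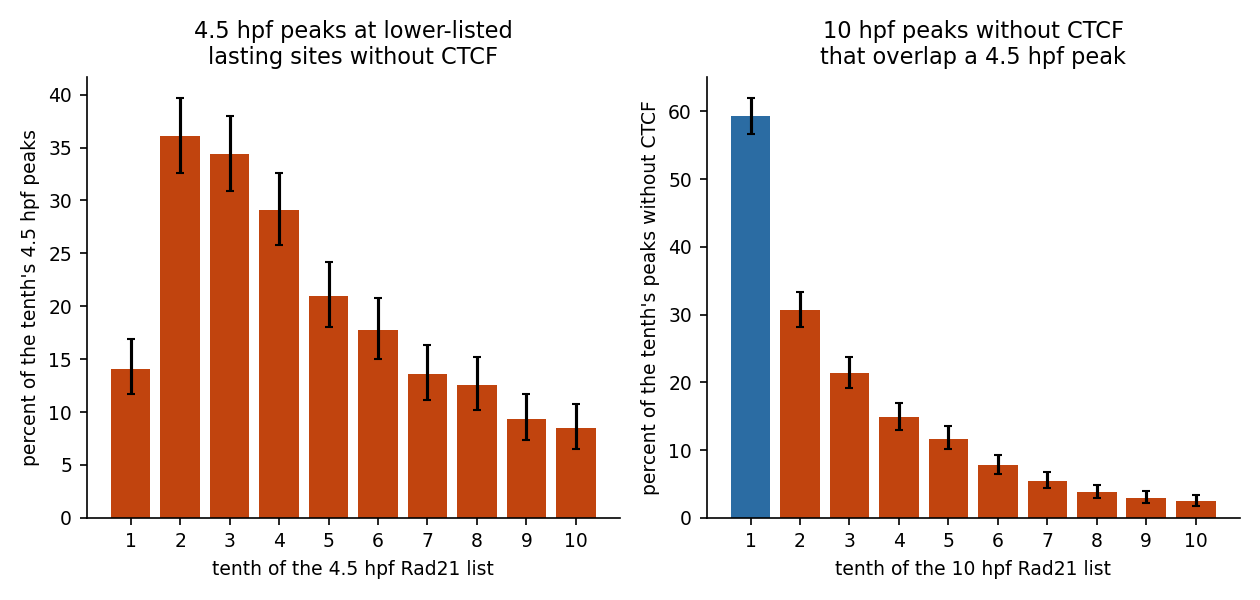
Left, share of the 4.5 hpf Rad21 peaks that were at lower-listed lasting sites without CTCF, in 10 equal groups along the 4.5 hpf list. Right, share of 10 hpf Rad21 peaks without CTCF that overlapped a 4.5 hpf peak, in 10 equal groups along the 10 hpf list, with the first, top-listed group in blue; bars give percent and lines exact 95% intervals, and the right-hand bars descend from 59.3% to 2.46%.

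Other members near the threshold stood in order of chromosome name and start, as all rows within a step do. Those at places 1820 and 1821 were at chromosome 8, 18037377 to 18037565, and chromosome 8, 19148557 to 19148745. Their 4.5 hpf peaks held places 498 and 630, ahead of most members. Places 1824 and 1825 were at chromosome 9, 32229156 to 32229344, and chromosome 9, 35913803 to 35913991. The first member of the next step was at chromosome 1, 25210881 to 25211069 (place 1828), followed by chromosome 10, 7602338 to 7602526 (place 1829), and chromosome 10, 10790838 to 10791026 (place 1831). At the other end, the last members were at chromosome 19, 63339 to 63527 (place 17950), chromosome 19, 1258142 to 1258330 (17951), and chromosome 19, 49414264 to 49414452 (17958). After them came chromosome 8, 30156941 to 30157129 (place 18049), and chromosome 10, 130145 to 130333 (18067). Their 4.5 hpf peaks held places 5642, 6410, 3537, 3261 and 4698 in the same order, so that a site in the last steps of 10 hpf could stand within the first 3572 places of the 4.5 hpf list.

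Rad21 peaks of members lay at nearly the same base pairs at both stages. The centres of the 10 hpf peak (189 bp wide) and the 4.5 hpf peak (169 bp wide) were a median of 29 bp apart (27 to 31), with quartiles of 13 and 58 bp. The overlap had a median of 150 bp. The centres could be at most 178 bp apart, since the rule asks for overlap. The median distance was 22 bp (20 to 23) at top-listed lasting sites without CTCF and 30 bp (26 to 33) at lower-listed lasting sites with CTCF. Lower-listed sites thus had like distances with and without CTCF, and both were farther apart than top-listed sites. Centres lay within 50 bp of each other in 69.4% of the members (67.0 to 71.8), against 85.1% (82.5 to 87.5) of the top-listed sites and 71.1% (67.0 to 74.9) of those with CTCF.

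Among the members the distance rose only weakly down either list. Its Spearman rho was 0.10 with the step of the 10 hpf list and 0.12 with that of the 4.5 hpf list. In 4 equal groups of 351 members along the 10 hpf order the median was 25, 27, 34 and 33 bp, and in 4 such groups along the 4.5 hpf order it was 26, 27, 29 and 37 bp (33 to 44 in the last). Centres over 100 bp apart were found for 101 members, or 7.19% (5.90 to 8.67), against 10 of the 800 top-listed sites, or 1.25% (0.601 to 2.29). Of these 101, 42 were in the last group of the 10 hpf order and 12 in the first. The 4.5 hpf centre lay at the higher coordinate in 47.8% of the members (45.2 to 50.4). The smallest overlaps were 2 bp at chromosome 5, 69423101 to 69423289, 7 bp at chromosome 15, 7045277 to 7045465, and 8 bp at chromosome 21, 21852321 to 21852509, named after their values were seen, and 11 members overlapped by under 20 bp.

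**Figure D3:**
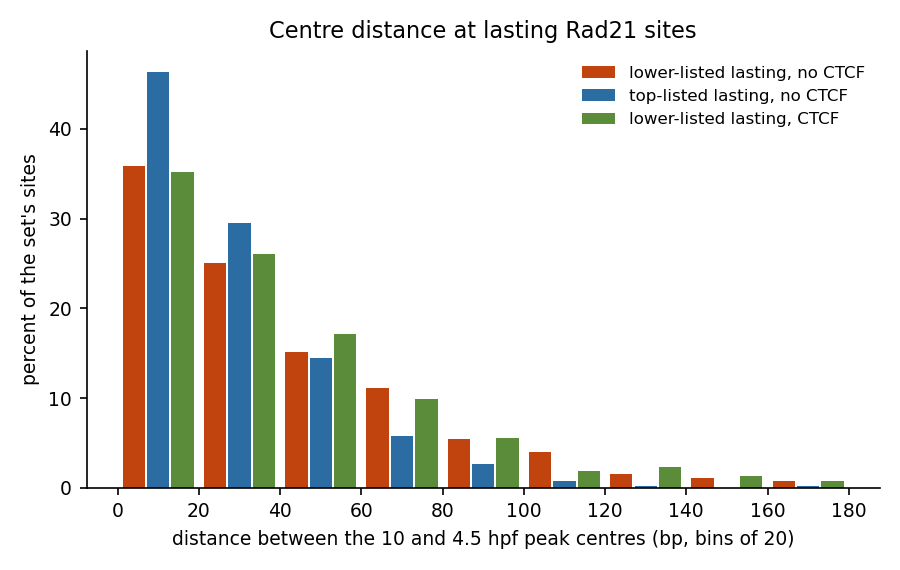
Distance between the centres of the 10 hpf Rad21 peak and its 4.5 hpf peak in bins of 20 bp, as percent of each set's sites, for lower-listed lasting sites without CTCF (1404), top-listed lasting sites without CTCF (800) and lower-listed lasting sites with CTCF (526). Both lower-listed sets carry more sites beyond 60 bp than the top-listed set.

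Members had a CTCF peak in their neighbourhood somewhat more often than new sites did. A CTCF peak lay within 10 kb, centre to centre, of 325 members, or 23.1% (21.0 to 25.4). In all 14684 Rad21 peaks of 10 hpf without CTCF overlap the share was 19.4%. It was 20.9% (18.1 to 23.9) at top-listed lasting sites without CTCF and 18.9% (18.2 to 19.6) at lower-listed new sites, or 18.7% when new sites were weighted to the members' groups of 1808 places along the 10 hpf list. In each of the 9 such groups after the threshold the share was higher among members than among new sites, with the smallest gap in the sixth (20.7% and 19.9%) and the largest in the seventh (32.6% and 19.0%). The later groups were small, with 86 members in the seventh and 41 in the last. In 4 equal groups of 351 members along the 10 hpf list the share was 20.2%, 26.8%, 19.7% and 25.9%. No share at new sites and no interval was computed for these 4 groups, so they do not show how the excess ran along the list. The median distance to the nearest CTCF peak was 28136 bp (25412 to 30466) at members, 28489 bp (25888 to 31584) at top-listed lasting sites and 33004 bp (32015 to 33823) at lower-listed new sites. Within 1 kb a CTCF peak was found for 35 members, or 2.49% (1.74 to 3.45), against 1.38% (0.688 to 2.45) of top-listed lasting sites and 1.84% (1.60 to 2.09) of lower-listed new sites. These 3 intervals overlapped, and the top-listed sites had the lowest share. CTCF was measured at 10 hpf only, so whether CTCF lay near these sites at 4.5 hpf was not measured.

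The rule excludes overlap with CTCF, so the closest centre distances were not open to members. The lowest distance was 178 bp at lower-listed new sites and 211 bp at top-listed lasting sites. A CTCF peak centred within 500 bp was found for 17 members and within 200 bp for 2. These 2 counts were not made for the other sets. The nearest was 196 bp away, at chromosome 13, 53849228 to 53849416, from the CTCF peak at 53849044 to 53849208. At chromosome 15, 23138181 to 23138369, CTCF was 198 bp away, and at chromosome 15, 44602848 to 44603036, it was 288 bp away, from a CTCF peak at place 103 of 14079. These 3 members are thus beside a CTCF peak rather than remote from one. The members farthest from CTCF were all on chromosome 4 on its long arm. The distance was 1445 kb at 45535424 to 45535612, 1075 kb at 39587459 to 39587647 and 528 kb at 52084396 to 52084584. Lower-listed new sites lay up to 1229131 bp from CTCF. On which chromosomes the farthest sites of other sets lay was not examined, so this does not set members apart.

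**Figure D4:**
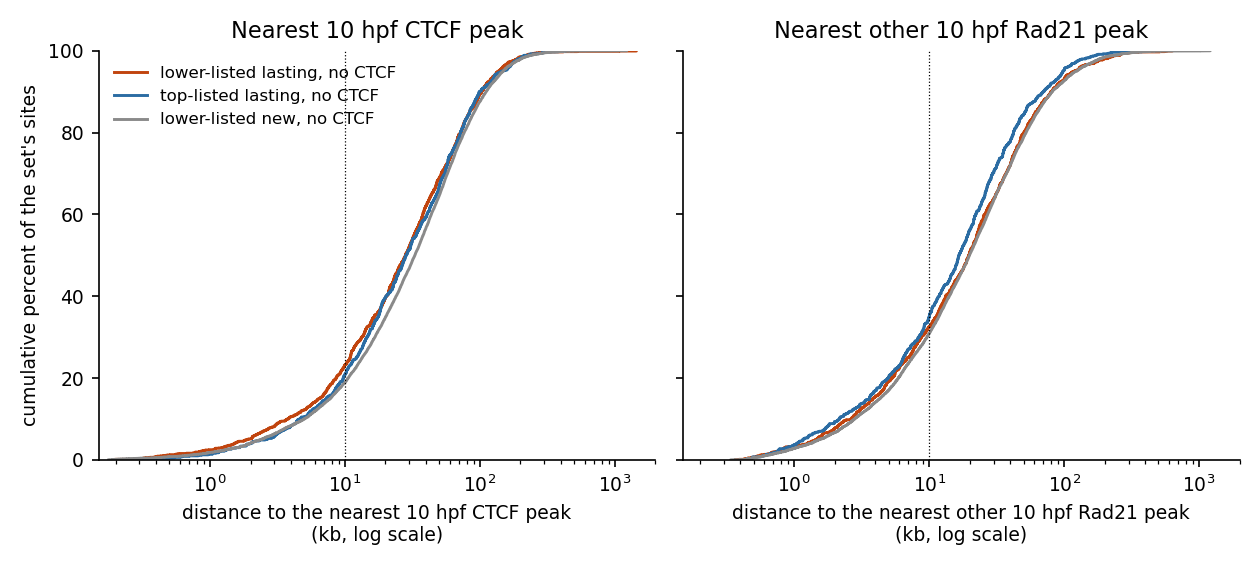
Cumulative percent of sites by distance, centre to centre, to the nearest 10 hpf CTCF peak (left) and to the nearest other 10 hpf Rad21 peak (right), on a log axis in kb, for 1404 lower-listed lasting, 800 top-listed lasting and 11932 lower-listed new sites without CTCF. At the dotted line of 10 kb the left curves stand at 23.1%, 20.9% and 18.9%, and the right ones at 32.5%, 34.9% and 30.9%.

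Crowding with other Rad21 peaks of 10 hpf was near that of the whole list. Another 10 hpf Rad21 peak lay within 10 kb of 457 members, or 32.5% (30.1 to 35.1), where the share over all 10 hpf peaks was 31.2%. It was 34.9% (31.6 to 38.3) at top-listed lasting sites, and 30.9% (30.0 to 31.7) at lower-listed new sites, or 34.8% after the same weighting. Members exceeded new sites in 3 of the 9 groups. At lower-listed lasting sites with CTCF it was 25.7% (22.0 to 29.6), below the members' interval. The median distance to the nearest other peak was 19645 bp (18120 to 21263) at members and 19890 bp (19394 to 20454) at lower-listed new sites.

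Most members with company had a single neighbour. Of the 457, 367 had 1 other 10 hpf peak within 10 kb, 79 had 2, 9 had 3 and 2 had 4. The nearest neighbour was itself a lasting site for 99 of the 457, or 21.7% (18.0 to 25.7). This compares with 26.9% (21.8 to 32.5) at top-listed lasting sites, 14.9% (13.7 to 16.1) at lower-listed new sites and 17.0% over all 10 hpf peaks with a neighbour within 10 kb. Members and top-listed lasting sites without CTCF thus had lasting neighbours more often than new sites did. Here the share at new sites was not weighted to the members' groups. Lasting sites with CTCF counted as lasting neighbours, but no share was computed for them as a set of their own. Another member lay within 10 kb of 53 members (3.77%) and within 100 kb of 366 (26.1%). No like count was made for the other sets, so these shares do not show that members cluster. The members with 4 neighbours, named after their values were seen, were at chromosome 14, 33752912 to 33753100, and chromosome 6, 50643420 to 50643608. The nearest pair were 367 bp apart, at chromosome 4, 1543484 to 1543672, also named after its value was seen. Per the file headers the peak caller, HOMER, asked for 4-fold enrichment over the 10000 bp around a peak in every set alike.

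Rad21 peaks of 4.5 hpf that were lost by 10 hpf lay within 10 kb of members somewhat more often than of new sites, and about as often as of the other lasting sites. A lost peak was within 10 kb of 148 members, or 10.5% (8.98 to 12.3), against 8.43% of all 10 hpf peaks. The shares were 9.75% (7.78 to 12.0) at top-listed lasting sites, 10.5% (7.97 to 13.4) at lower-listed lasting sites with CTCF and 8.05% (7.56 to 8.55) at lower-listed new sites, or 8.49% after the same weighting. At 10 kb the members' interval thus overlapped those of both other lasting sets, and 7 of the 9 groups had a higher share among members than among new sites. Within 1 kb the order of members and new sites was the other way, and the rule may bear on this comparison. A lasting site overlaps a 4.5 hpf peak that is not lost, and the file header gives a minimum distance of 336 bp between 4.5 hpf peaks. The closest distances were thus less open to lasting sites, but not closed to them, since the 4.5 hpf centre could lie up to 178 bp to 1 side. Such a minimum was also not strict at 10 hpf, where the header gives 378 bp and a member had another peak 367 bp away. How far the rule bears on the order was not tested. The lowest distance to a lost peak was 180 bp at lower-listed new sites and 389 bp at members. Within 1 kb a lost peak was found for 12 members, or 0.855% (0.442 to 1.49), and for 1.10% (0.919 to 1.30) of lower-listed new sites, or 1.35% after the same weighting. The share within 1 kb was 1.38% (0.688 to 2.45) at top-listed lasting sites and 0.760% (0.208 to 1.94) at lower-listed lasting sites with CTCF, and all these intervals overlapped.

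No member overlapped a Rad21 peak of 2.5 hpf, the stage before broad transcription, which allows a share of up to 0.214% by the limit of 3 counts and of up to 0.262% by the exact interval. Over all 10 hpf peaks 9 did, or 0.0498%, which lies below both limits, so members cannot be told apart from the whole list here. Of the 2204 lasting sites without CTCF, 1 overlapped a 2.5 hpf peak, the top-listed site at chromosome 13, 43124288 to 43124476. A 2.5 hpf peak lay within 10 kb of 9 members, or 0.641% (0.294 to 1.21), beside 0.741% of all 10 hpf peaks. The nearest, 1.41 kb away, faced the member at chromosome 15, 46192135 to 46192323, and had 4.49-fold enrichment in the authors' deposited table. The member at chromosome 1, 588160 to 588348, whose 4.5 hpf peak held place 292, stood 8.34 kb from a 2.5 hpf peak of 15.4-fold enrichment in the authors' deposited table. The 2.5 hpf list rests on 15362000 tags, of which 5245276 were left after duplicates were filtered, per the file headers. Its libraries had 6 sonication cycles and 2000 embryos each, against 10 cycles and 1000 embryos at the later stages. The list was also made with another library kit, read length and peak caller, so stage and method cannot be told apart in this comparison.

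Members were spread over all 25 chromosomes. They made up between 5.65% (chromosome 24) and 9.67% (chromosome 11) of a chromosome's 10 hpf peaks, around the 7.77% of the whole list. The exact interval excluded the whole-list share for 1 of the 25 chromosomes, chromosome 18, with 38 members among 666 peaks, or 5.71% (4.07 to 7.75). Its upper end lay only just below 7.77%, and among 25 such intervals 1 exclusion can arise from counting error alone. The density ran from 0.762 members per Mb on chromosome 18 to 1.44 on chromosome 11, with 1.04 over all chromosomes. Chromosome 4 held 48 members, or 3.42% (2.53 to 4.51), beside 3.19% of all 10 hpf peaks, of which 16 lay beyond 24 Mb. The share of members on chromosome 4 was thus near that of the whole list. Beyond 24 Mb lay 1.14% of members (0.653 to 1.84), 0.625% (0.203 to 1.45) of top-listed lasting sites and 0.872% (0.713 to 1.06) of lower-listed new sites, with overlapping intervals.

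A larger share of these lasting sites than of lower-listed new sites lay near the ends of chromosomes. Of the members 105, or 7.48% (6.16 to 8.98), lay within 1 Mb of a chromosome end, where a chromosome was taken to run up to the largest end in the lists. These ends make up 3.69% of the total length and hold 4.54% of all 10 hpf Rad21 peaks. The share was 7.0% (5.33 to 8.99) at top-listed lasting sites without CTCF and 10.5% (7.97 to 13.4) at lower-listed lasting sites with CTCF. It was 3.60% (3.28 to 3.95) at lower-listed new sites, or 3.28% after the same weighting. The 4.5 hpf list as a whole stood at 6.52% (5.96 to 7.12) and its lost peaks at 5.60% (4.92 to 6.34), so the excess at the ends was present in that list too and the members' interval overlapped both. The same order of members and new sites held within 500 kb of an end (4.63% and 2.0%) and within 2 Mb (12.0% and 6.44%). The window and the comparison were chosen after the values were seen.

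**Figure D5:**
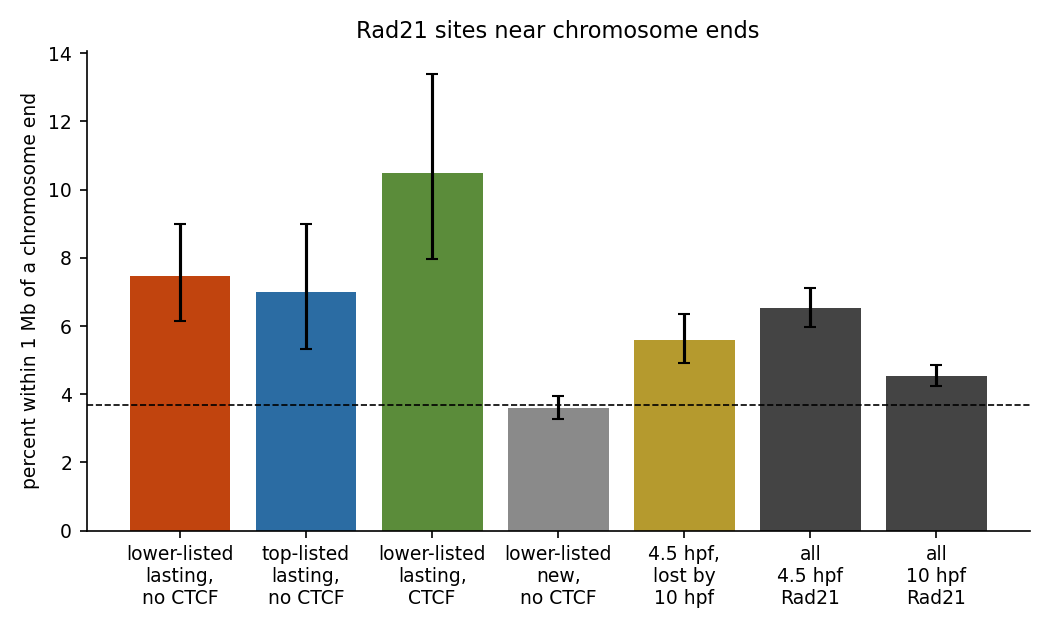
Percent of Rad21 sites that lay within 1 Mb of a chromosome end, with exact 95% intervals, for the set of 1404 sites (left) and the sets it is compared with. The dashed line marks the 3.69% of chromosome length within these windows; the lower-listed new sites stand at 3.60%, and all other bars lie above the line.

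The sites near ends came from many chromosomes. Members were found at 44 of the 50 ends, 46 of them in the first and 59 in the last 1 Mb of a chromosome, and no end held more than 6. Chromosome 15 and chromosome 16 had 6 each in their last 1 Mb, and chromosome 10 had 5 in its first, while both ends of chromosome 4 together held 1. A CTCF peak lay within 10 kb of 31.4% of the 105 members near ends and of 22.5% of the others. Of all CTCF peaks 5.21% (4.85 to 5.59) lay within these ends, which make up 3.69% of the length. No like share near ends was given for other sets, so this does not set members apart. The median place of members near ends was 6704 in the 10 hpf list, against 5460 for the other members, and 2155 in the 4.5 hpf list, against 2465.

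Windows of 1 Mb held few members each. Of 1369 windows 532 had none, 468 had 1 and 238 had 2, while 131 had 3 or more and together held 460 members. Across windows the number of members went weakly with the number of lower-listed new sites (Spearman rho 0.25) and of CTCF peaks (0.17), counts that share the window's mappable length. The fullest windows were chromosome 11 from 1 Mb and chromosome 15 from 46 Mb, with 6 members each. The window on chromosome 11 held 23 Rad21 peaks of 10 hpf in all, with 11 lower-listed new sites among them, and 12 CTCF peaks. That on chromosome 15 held 16, with 8 lower-listed new sites among them, and 15 CTCF peaks. Over all chromosomes there were 11932 lower-listed new sites and 14079 CTCF peaks, and 7.77% of the 10 hpf peaks were members. These windows were picked for their members, and whether members gather in windows was not tested. In the window on chromosome 15, the member at 46355798 to 46355986 lay 0.400 kb from a CTCF peak, and the member at 46192135 to 46192323 was the one nearest to a 2.5 hpf peak.

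The next windows held 5 members each, as did 11 windows in all. With the most 10 hpf Rad21 peaks among these 11, chromosome 22 from 11 Mb held 31, chromosome 23 from 24 Mb held 30 and chromosome 2 from 32 Mb held 26. In the window on chromosome 22, members at 11967491 to 11967679, 11977881 to 11978069 and 11986003 to 11986191 followed each other within 20 kb. Their places at 10 hpf were 17497, 9029 and 2407, and at 4.5 hpf 619, 4330 and 3104. The members of this trio thus stood far apart in both lists. On chromosome 11 a like trio lay at 1357479 to 1357667, 1374352 to 1374540 and 1379952 to 1380140, with places of 1836, 1837 and 3703 at 10 hpf and of 601, 503 and 2473 at 4.5 hpf, so that the first and second of them stood close together in both lists.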

How the data were processed

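Rad21 was mapped by ChIP-seq at 2.5, 4.5 and 10 hpf and CTCF at 10 hpf, with 2 libraries per group and 4 deposited peak lists. Reads were aligned with Bowtie2 2.2.1 to Zv9, per the submitters' processing notes. The 3 later lists were called by HOMER, per the file headers, with the false discovery rate set to 0.001 and at least 4-fold more tags than input, and whether each pools both libraries is not stated. The deposited score is 1 in every HOMER row and was not used. The 2.5 hpf list came from MACS2 on both libraries, per the file headers, and its fold enrichment is a ratio over modelled input that the authors deposited. Peak positions, another kind of value, were used as deposited.

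Overlaps, nearest centres and intervals were computed with Python 3.11.15, numpy 2.4.6, pandas 2.3.3 and scipy 1.17.1, and checked on simulated peaks. The members and comparison sets were chosen with earlier results of these data known. Regions named in the text are the first 10 and last 5 members, the 5 with the highest 4.5 hpf place, the 3 nearest to and 3 farthest from CTCF, the 5 fullest windows of 1 Mb and the 3 sites on each side of the threshold; others are marked where they appear. Alternatives changed the overlap, the place threshold, the CTCF list, the windows and chromosome 4. Genes and sequences at these sites were not analysed here.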

Additional observations from a re-analysis of the deposited data

How the results depend on the processing

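Of 91 alternative values over 8 results, 76 stayed within 1.5 times the count of members or within the interval of the share or median, and 15 moved. Several settings kept nearly the same sites. There were 1403 members when the 4.5 hpf peak also had to lack CTCF, and 1356 without chromosome 4. Values at such settings could hardly move, so the count of 76 is not a measure of stability. The number of members ran from 1005 to 1664. The median place of the 4.5 hpf peak was 2280 with the threshold after the first 904 places of the 10 hpf list, 2727 with it after the first 3615, and 2265 for members in the first 9037 places. These follow the choice of places. The median centre distance was 26 bp with an overlap of at least 50% of the narrower peak and 32 bp with centres within 500 bp, by construction. With windows of 5 kb and 20 kb in place of 10 kb, the share of members with another Rad21 peak was 19.2% and 50.6%, with a CTCF peak 12.2% and 39.5%, and with a lost 4.5 hpf peak 4.70% and 18.6%. The alternatives were computed for members only. Comparisons with other sets were not repeated under them, apart from the windows at chromosome ends and chromosome 4 beyond 24 Mb. The share on chromosome 4 was 1.14% when only its part beyond 24 Mb counted. Near chromosome ends it was 4.63% within 500 kb and 12.0% within 2 Mb, and 6.07% for members in the first 9037 places of the 10 hpf list; the cause of the last was not tested. Moving the threshold to either end of its step gave 1426 or 1397 members. This, the order by identifier, the test of CTCF at the 4.5 hpf peak and the chromosome ends were added after the data were seen. No paired analysis was possible because the lists give no value per library, and for the same reason no replicate could be left out. Shares near transcription starts and at the CTCF motif were not run, since no genome of the build was used here.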
